A study of Homo sapiens with 16 samples.

Results

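A set of 10 long noncoding RNAs was followed through RNA-seq libraries of HMC3, an established human microglial cell line, after treatment with ketamine, its hydroxynorketamine (HNK) metabolites and estradiol (E2). The genes were MALAT1, NEAT1, MEG3, H19, GAS5, SNHG1, KCNQ1OT1, TUG1, MIAT and NORAD. They were taken by symbol from the deposited count table, where they are 10 of 25370 genes, with NORAD listed under its older symbol LINC00657. They were selected on 2 measured values of these libraries: their abundance, and, for MALAT1 at their head, its lower level with E2 plus ketamine than with vehicle. The order of their levels and every MALAT1 value that uses the E2 plus ketamine libraries are therefore given as description, with no test. The other MALAT1 comparisons with vehicle, and its interactions, use the same vehicle libraries as that selection. Such a selection favours high vehicle values, so the MALAT1 p-values of those comparisons are not free of it. All 10 passed the filter on low counts, which left 16004 genes to be tested.

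The labels name no genetic change in the cells. Each of 8 conditions was measured in 2 libraries after 24 h. The conditions were vehicle, E2 at 0.1 nM, ketamine at 400 nM, (2R,6R)-HNK at 400 nM, (2S,6S)-HNK at 400 nM, and each of the 3 drugs at that dose together with E2 at 0.1 nM. Whether each pair of libraries came from separate cultures is not in the labels, so p-values measure only the spread between these libraries, which may be technical. Total counts were between 55300614 and 81646165 per library, and levels are given as CPM, counts scaled by edgeR to one library size. Of 12 microglial markers, CD68 and CD14 had a median of at least 1 CPM, while PTPRC, SPI1, CX3CR1, AIF1, TMEM119, P2RY12 and ITGAM had at most 7 counts in any library. Of 9 fibroblast and mural markers, 8 passed that level, with summed levels of 20012.9 to 25166.3 CPM against 74.1 to 112.7 CPM for the microglial list. Both lists moved with treatment, and their part in the results was not tested. In bulk RNA, fewer cells that express a gene and less of its RNA per cell cannot be told apart.

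Long noncoding RNAs are transcribed and often spliced like messenger RNAs but act as RNA. MALAT1 is held in nuclear speckles, where splicing factors collect, and NEAT1 is the scaffold around which paraspeckles form. NORAD sits mainly in the cytoplasm and binds Pumilio proteins, which repress messenger RNAs that carry their motif. GAS5 and SNHG1 are hosts of small nucleolar RNAs, which are cut from their introns, and GAS5 also has a 5′ terminal oligopyrimidine tract, the element that couples the use of such RNAs to translation. KCNQ1OT1, H19 and MEG3 come from imprinted loci, where only the copy from one parent is active. KCNQ1OT1 silences its neighbours on the paternal copy, H19 shares a locus with IGF2, and MEG3 with DLK1. TUG1 has been linked to repression by chromatin complexes, and MIAT is best known from heart and neurons.

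The base composition of these RNAs is shown first because changes in this data set ran with it. Of the members, 7 were close to 42% to 44% G and C over their exons (MALAT1 42.0%, TUG1 42.0%, NORAD 41.8%, GAS5 42.1%, SNHG1 42.1%, KCNQ1OT1 43.7%, NEAT1 44.1%), MEG3 and MIAT were at 50.9% and 51.1%, and H19 was at 61.8%. Windows of 100 bases from the exons of 3 members, in GRCh37 coordinates with G and C in capitals, show the contrast between MALAT1 (chr11:65270143-65270242, plus strand, 42.0% G and C), MEG3 (chr14:101245753-101245852, plus strand, 56.0%) and H19 (chr11:2016602-2016701, minus strand, 62.0%).
MALAT1: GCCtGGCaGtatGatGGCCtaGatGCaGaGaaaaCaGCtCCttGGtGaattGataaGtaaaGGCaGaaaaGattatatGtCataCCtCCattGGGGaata
MEG3: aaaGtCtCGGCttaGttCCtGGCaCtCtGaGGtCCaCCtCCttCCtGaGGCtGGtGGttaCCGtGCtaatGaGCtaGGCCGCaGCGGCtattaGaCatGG
H19: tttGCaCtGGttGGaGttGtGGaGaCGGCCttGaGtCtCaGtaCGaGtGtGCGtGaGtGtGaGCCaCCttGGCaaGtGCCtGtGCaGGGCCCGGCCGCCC

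A pair of members carry short elements tied to their known roles. NORAD held 15 copies of the Pumilio motif TGTANATA on its own strand in 5401 bases, whereas NEAT1 held 6, TUG1 2 and the other members 0. Of 21334 annotated canonical transcripts, 26.6% held at least 1 copy, and 4, with NORAD itself among them, held at least 15. A match to these letters is a description and not a measured binding site. Leading runs of pyrimidines were 6 bases long at the annotated start of GAS5 and 5 at that of KCNQ1OT1. How common such runs are among other transcripts was not tested. A pair of NORAD copies, with the motif in capitals (chr20:34638104-34638133 and chr20:34637624-34637653, minus strand), are shown beside the annotated start of GAS5 with its leading run of 6 pyrimidines in capitals (chr1:173837098-173837127, minus strand).
NORAD site 1: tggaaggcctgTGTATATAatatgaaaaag
NORAD site 3: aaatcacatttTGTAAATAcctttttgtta
GAS5 start: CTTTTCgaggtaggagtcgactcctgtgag

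NORAD was the most abundant member, with a mean of 442 CPM over the 16 libraries and 324 to 544 CPM in single libraries. MALAT1 (147 CPM), TUG1 (130.0 CPM) and MEG3 (98.3 CPM) followed, then GAS5 (60.6 CPM), NEAT1 (56.5 CPM) and SNHG1 (51.1 CPM). KCNQ1OT1 (27.1 CPM) and H19 (17.1 CPM) were modest, and MIAT, at 0.550 CPM and 10 to 66 counts per library, was not abundant. The ranges over libraries did not overlap between NORAD and MALAT1, between SNHG1 and KCNQ1OT1, or between H19 and MIAT. The ranges of all other neighbours in this order overlapped, although MEG3 was above GAS5 and KCNQ1OT1 above H19 in 16 of 16 libraries. TUG1 was above MEG3, and GAS5 above NEAT1, in 12 of 16, while MALAT1 was above TUG1, and NEAT1 above SNHG1, in 9 of 16. Compared per length, as CPM per kilobase of all annotated exons, NORAD was again at the top with 81.8, and MALAT1, SNHG1, TUG1 and GAS5 lay together between 12.3 and 14.1. H19 was at 4.93, MEG3 at 4.23, NEAT1 at 2.48, KCNQ1OT1 at 0.293 and MIAT at 0.0346. These levels per length depended on the gene model. On canonical transcripts MEG3 was at 156 CPM per kilobase, above NORAD at 81.8. GAS5 was at 78.9 there, SNHG1 at 44.0, KCNQ1OT1 at 40.0, TUG1 at 17.4, H19 at 15.4 and MALAT1 at 14.1.

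**Figure D1:**
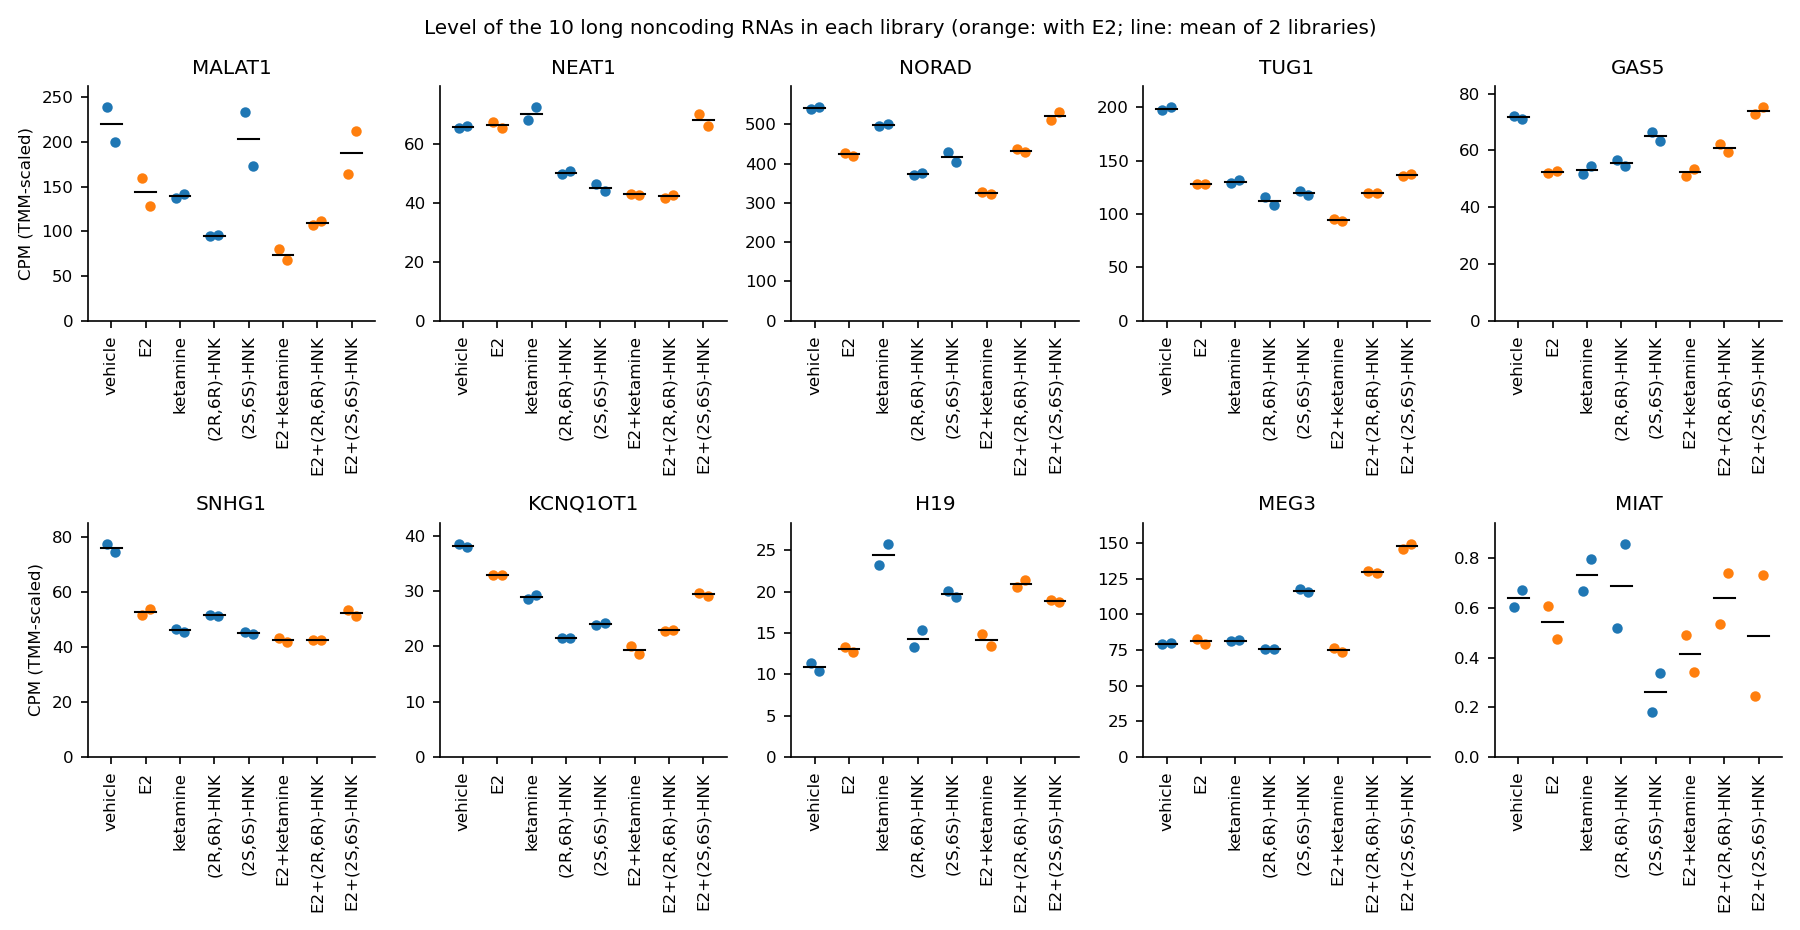
Level of each of the 10 long noncoding RNAs in CPM (vertical axis, from 0, one scale per panel) in the 16 libraries, by condition along the horizontal axis. Each point is 1 library, orange points are conditions with E2, and the short line is the mean of the 2 libraries; the MALAT1 points reach from 67.6 to 239 CPM and its (2S,6S)-HNK points lie apart at 233 and 173 CPM.

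Replicate libraries lay close together for most members. The widest ratio between the 2 libraries of a condition was 1.05 to 1.16 for NEAT1, MEG3, H19, GAS5, SNHG1, KCNQ1OT1, TUG1 and NORAD. MALAT1 reached 1.35, with (2S,6S)-HNK, while the 1000 tested genes nearest to it in level had a median widest ratio of 1.06. MIAT reached 2.98 in CPM, with E2 plus (2S,6S)-HNK. In the comparison with genes of its level, its value was 2.76 against a median of 1.84. Small differences in MALAT1 and any in MIAT are thus less secure than those in the other members.

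The first question was how each treatment differed from vehicle. As counted, most members tested were called lower at an adjusted p under 0.05 with every treatment except E2 plus (2S,6S)-HNK (4 of 10). TUG1 and SNHG1 fell with each of the 7 treatments, both as counted and after a correction for base composition. KCNQ1OT1 fell with each as counted, and its value with E2 was 0.07 after the correction. H19 rose with all 7 as counted, and with E2, (2R,6R)-HNK and E2 plus ketamine its values were below 0 after the correction. In both versions MEG3 rose with (2S,6S)-HNK, with E2 plus (2R,6R)-HNK and with E2 plus (2S,6S)-HNK. These 7 comparisons share the vehicle libraries and are not independent of each other.

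At an adjusted p under 0.05 by edgeR's quasi-likelihood test, many genes of any kind were called, so counts of members are set beside that background. The background was not matched in level: it includes genes with few counts, which are called less easily than abundant ones. The members were selected for abundance, and whether their level accounts for a larger share called was not tested, here or in later comparisons. With E2, 7 of 10 members were called (1 higher, 6 lower), against 62.5% of all genes (29.9% higher, 32.7% lower). With ketamine it was 8 (2 higher, 6 lower) against 59.3% (26.8% higher, 32.5% lower). With (2R,6R)-HNK it was 8 (1 higher, 7 lower) against 66.6% (31.7% higher, 34.9% lower), and with (2S,6S)-HNK 9 (2 higher, 7 lower) against 67.9% (32.1% higher, 35.8% lower). With E2 plus ketamine 8 of the 9 members tested were called (1 higher, 7 lower) against 71.7% (34.3% higher, 37.4% lower). With E2 plus (2R,6R)-HNK it was 9 of 10 (2 higher, 7 lower) against 69.7% (33.4% higher, 36.3% lower), and with E2 plus (2S,6S)-HNK 6 of 10 (2 higher, 4 lower) against 59.7% (24% higher, 35.7% lower). The shares called were near the background where both directions are counted, and as counted members were more often lower than higher. The median log2 fold change of the members tested was -0.29 with E2, -0.26 with ketamine, -0.46 with either HNK, -0.62 with E2 plus ketamine, -0.48 with E2 plus (2R,6R)-HNK and -0.14 with E2 plus (2S,6S)-HNK. The E2 plus ketamine value is over 9 members, without MALAT1, and the others are over 10. The median over all genes tested was between -0.06 and -0.00 in the same comparisons.

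Other genes near the base composition of MALAT1 were also lower, and those near that of H19 were higher. The 1000 tested genes nearest to MALAT1 in G and C content had a median log2 fold change of -0.43 with E2, -0.35 with ketamine, -0.50 with either HNK, -0.64 with E2 plus ketamine, -0.51 with E2 plus (2R,6R)-HNK and -0.27 with E2 plus (2S,6S)-HNK. The 1000 nearest to H19 had medians of 0.40, 0.31, 0.49, 0.46, 0.68, 0.48 and 0.20 in the same order, with the R before the S form of HNK. For those nearest to MEG3 and to MIAT the medians lay between -0.01 and 0.17. Each comparison was therefore also computed after the smooth relation of log2 level to G and C content and to length had been removed from every library. This correction takes out anything that runs with base composition, whatever its source, and the source was not tested. After it, the members called, in the order of treatments above, were 2, 3, 0, 5, 1, 4 and 5 higher and 3, 4, 6, 5, 7, 5 and 3 lower, so that with (2S,6S)-HNK as many were higher as lower and with E2 plus (2S,6S)-HNK more were higher. Of all genes, 17.9%, 22.5%, 22.2%, 28.1%, 25.8%, 29.3% and 26.8% were then higher and 19.6%, 25.0%, 23.2%, 28.3%, 26.2%, 29.5% and 28.8% lower.

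**Figure D2:**
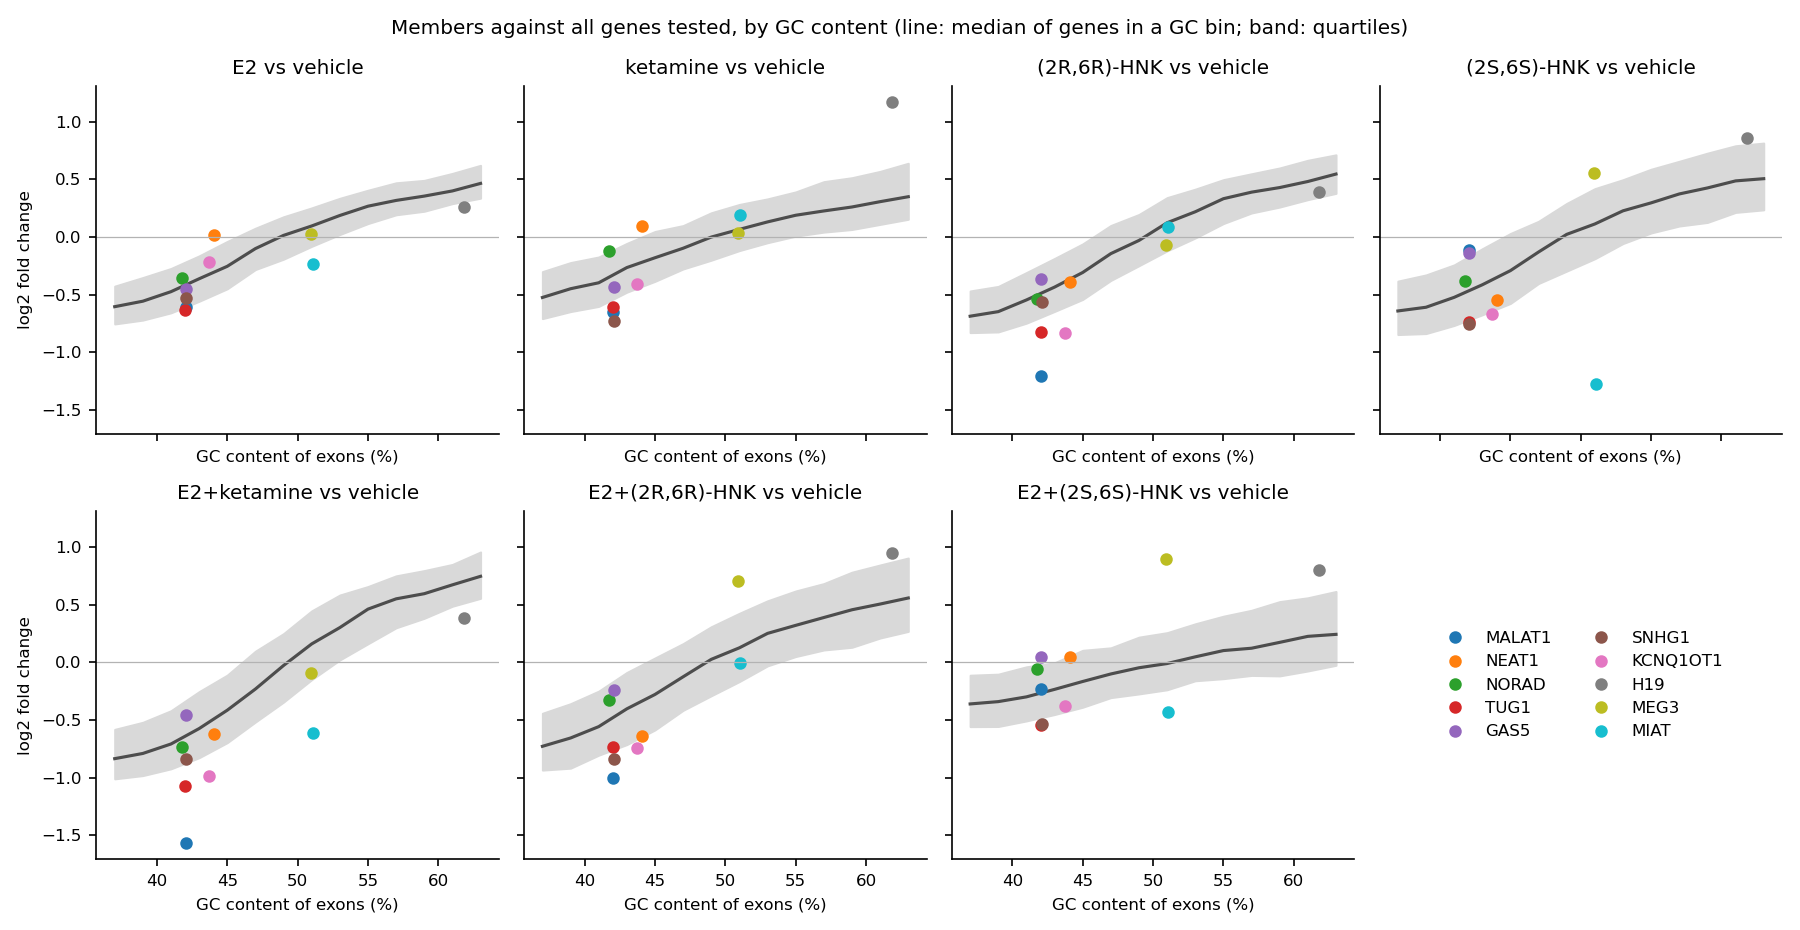
Log2 fold change against vehicle (vertical axis) by G and C content of the exons in percent (horizontal axis), one panel for each of the 7 treatments. The line is the median and the band the quartiles of all tested genes in bins of G and C content, and the coloured points, named in the key, are the 10 long noncoding RNAs; members near 42% G and C lie where the median of all genes is below 0.

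A log2 fold change of at least 1 either way together with an adjusted p under 0.05 was reached by few members: by H19 with ketamine (1 of 10 members, 3.56% of all genes), by MALAT1 with (2R,6R)-HNK (1 of 10, 3.75%) and with E2 plus (2R,6R)-HNK (1 of 10, 11.5%), by MIAT with (2S,6S)-HNK (1 of 10, 9.08%) and by TUG1 with E2 plus ketamine (1 of 9, 11.0%). No member reached it with E2 (1.81% of all genes) or with E2 plus (2S,6S)-HNK (5.85%). MALAT1 with E2 plus (2R,6R)-HNK lay just past this limit and was short of it without the first E2 plus (2R,6R)-HNK library (-0.97) or the first vehicle library (-0.87), and H19 reached it (1.01) in the latter case. MIAT was not called without the first (2S,6S)-HNK library or the second vehicle library. Without the first E2 plus ketamine library 2 of 9 members reached it, and without the second E2 plus (2S,6S)-HNK library 1 of 10 did. After the correction for G and C content and length, MIAT alone reached it.

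**Figure D3:**
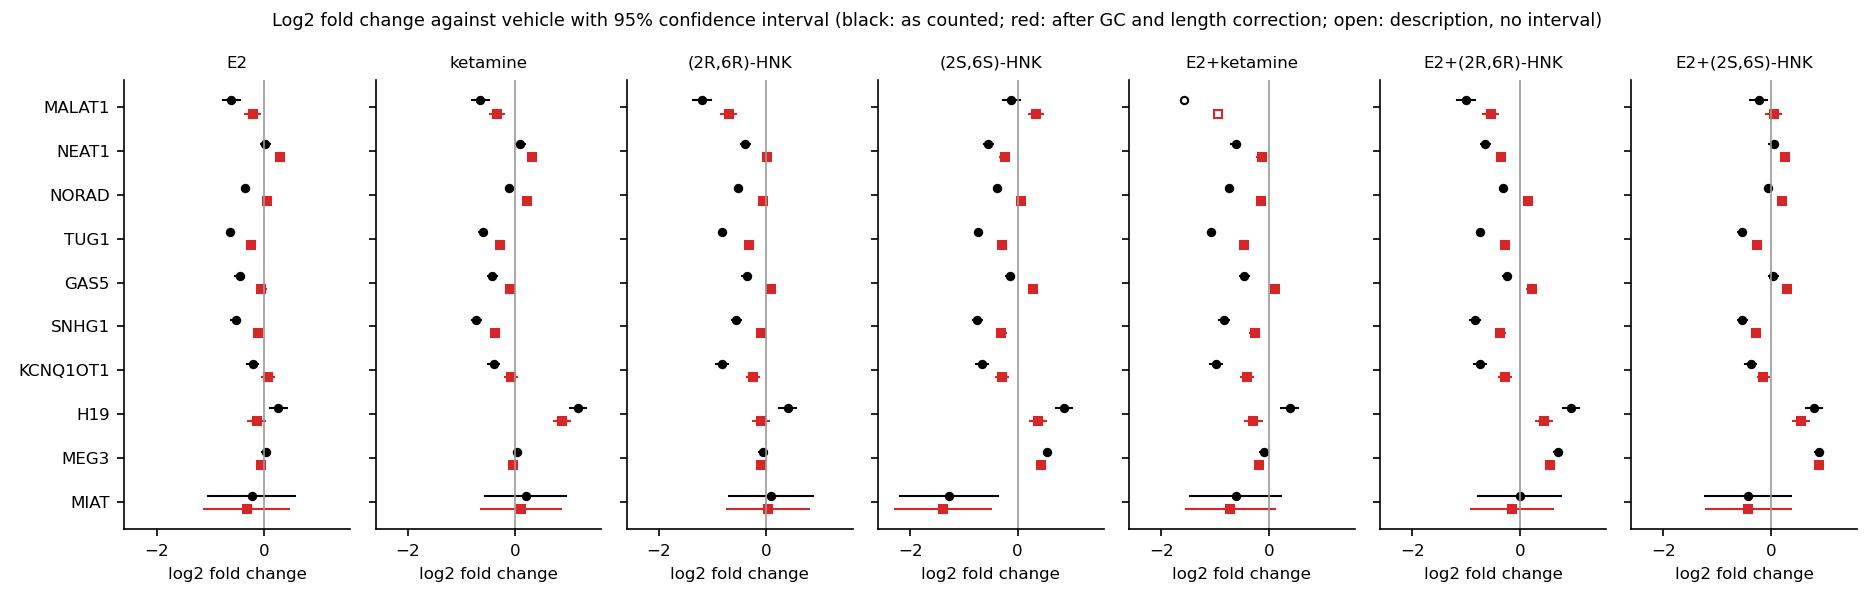
Log2 fold change against vehicle (horizontal axis) with its 95% confidence interval for the 10 long noncoding RNAs in 7 treatments. Black points are as counted, red points are after removal of the relation to G and C content and length, and open symbols mark MALAT1 with E2 plus ketamine, which is a description; TUG1 and SNHG1 lie below 0 in both versions throughout, while H19 with E2, (2R,6R)-HNK and E2 plus ketamine changes from above to below 0.

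MALAT1 (ENSG00000251562, GRCh37 chr11:65265111-65275544, plus strand) was at 239 and 200.3 CPM with vehicle, 159.6 and 127.9 with E2, 138 and 142 with ketamine, 95.1 and 95.4 with (2R,6R)-HNK, then 233 and 173 with (2S,6S)-HNK, 80.4 and 67.6 with E2 plus ketamine, 107 and 112 with E2 plus (2R,6R)-HNK, and 164 and 212 with E2 plus (2S,6S)-HNK. The vehicle libraries were above every library of E2, ketamine, (2R,6R)-HNK, E2 plus ketamine and E2 plus (2R,6R)-HNK, and they overlapped those of (2S,6S)-HNK and of E2 plus (2S,6S)-HNK. E2 plus ketamine held the lowest libraries of all. Relative to vehicle, MALAT1 fell by 0.61 (SE 0.081, adjusted p = 4.45e-09) on the log2 scale with E2 and by 0.65 (SE 0.080, adjusted p = 7.74e-10) with ketamine. It fell by 1.20 with (2R,6R)-HNK (SE 0.083, adjusted p = 3.97e-18), to 0.434 of the vehicle level, and it fell to 0.498 of that level with E2 plus (2R,6R)-HNK (adjusted p = 1.1e-15). These 4 decreases kept their direction after the correction, at -0.21, -0.34, -0.71 and -0.54, and their adjusted p stayed under 0.05. The SE, intervals and p-values of MALAT1, here and in later comparisons, draw on the spread shared across genes. They may be too small for MALAT1, whose widest replicate ratio was 1.35 against a median of 1.06 in genes of like level. The vehicle libraries also entered the choice of MALAT1. With E2 plus ketamine the log2 fold change was -1.57 as counted and -0.95 after the correction, a level of 0.337 of vehicle as counted.

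With (2S,6S)-HNK alone the MALAT1 difference from vehicle was -0.11 (95% interval -0.27 to 0.05, adjusted p = 0.207), and after the correction it was 0.34 (adjusted p = 1.17e-05). This value rests on single libraries: it was -0.35 without the first (2S,6S)-HNK library and -0.24 without the second vehicle library, which both passed the threshold. It was 0.08 (adjusted p = 0.383) without the second (2S,6S)-HNK library and 0.02 (adjusted p = 0.890) without the first vehicle library. With E2 plus (2S,6S)-HNK the value was -0.23 (adjusted p = 0.0119), and 0.05 (adjusted p = 0.565) after the correction. It was -0.05 (adjusted p = 0.624) without the first E2 plus (2S,6S)-HNK library, -0.10 (adjusted p = 0.397) without the first vehicle library, -0.42 without the second E2 plus (2S,6S)-HNK library and -0.35 without the second vehicle library. It was not called by DESeq2 (-0.21, adjusted p = 0.375) or under upper-quartile scaling (-0.12, adjusted p = 0.165). An antisense gene, TALAM1, covers 77.8% of the MALAT1 exons on the other strand and is not in the table, and how strand entered the counting is not given in the sources used here, so reads of the pair cannot be told apart.

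NEAT1 (ENSG00000245532, chr11:65190245-65213011, plus strand), the neighbour of MALAT1 on chromosome 11, had 65.6 and 66.3 CPM with vehicle, 67.7 and 65.6 with E2, 68.2 and 72.6 with ketamine, 49.8 and 50.9 with (2R,6R)-HNK, then 46.5 and 44.0 with (2S,6S)-HNK, 43.2 and 42.7 with E2 plus ketamine, 41.9 and 42.8 with E2 plus (2R,6R)-HNK, and 70.2 and 66.3 with E2 plus (2S,6S)-HNK. The libraries fell into a higher set, made of vehicle, E2, ketamine and E2 plus (2S,6S)-HNK, and a lower set, made of the other 4 conditions, which did not overlap. NEAT1 fell by 0.39 with (2R,6R)-HNK (corrected value 0.01), 0.54 with (2S,6S)-HNK, 0.62 with E2 plus ketamine and 0.64 with E2 plus (2R,6R)-HNK on the log2 scale, with SE between 0.043 and 0.044. With E2 the difference from vehicle was 0.02 (95% interval -0.07 to 0.10, adjusted p = 0.778), where MALAT1 was lower. The increase with ketamine, 0.09 (adjusted p = 0.0454), did not pass without the second ketamine library (0.05, adjusted p = 0.453), or without either vehicle library. After the correction it was at -0.24 with (2S,6S)-HNK, -0.35 with E2 plus (2R,6R)-HNK and -0.13 with E2 plus ketamine, and it was higher than with vehicle by 0.29 with E2, 0.31 with ketamine and 0.26 with E2 plus (2S,6S)-HNK, each with an adjusted p under 0.05. The last was 0.05 as counted, which did not pass, but was 0.16 under upper-quartile scaling and 0.12 in a fit of the compared groups alone, which both did.

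NORAD (listed as LINC00657, ENSG00000260032, chr20:34633540-34638940, minus strand), whose Pumilio elements are printed above, was at 540.0 and 544 CPM with vehicle and lowest, at 328 and 324 CPM, with E2 plus ketamine. Between these lay 428 and 420.0 with E2, 495 and 500.4 with ketamine, 372 and 377 with (2R,6R)-HNK, then 431 and 404 with (2S,6S)-HNK, 437 and 430.2 with E2 plus (2R,6R)-HNK and 512 and 532 with E2 plus (2S,6S)-HNK. As counted, NORAD fell with 6 treatments, by 0.12 to 0.73 on the log2 scale (with ketamine -0.12, and -0.04 with an adjusted p = 0.185 under upper-quartile scaling), and was at -0.05 (adjusted p = 0.0526) with E2 plus (2S,6S)-HNK, which passed without the second E2 plus (2S,6S)-HNK library (-0.08). The correction turned this over in most comparisons: it left NORAD lower with (2R,6R)-HNK (-0.07) and with E2 plus ketamine (-0.14), and put it higher with E2 (0.05), ketamine (0.22), (2S,6S)-HNK (0.07), E2 plus (2R,6R)-HNK (0.15) and E2 plus (2S,6S)-HNK (0.21), all with an adjusted p under 0.05.

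TUG1 (ENSG00000253352, chr22:31365231-31375381, plus strand, annotated as protein coding in the gene models used here) was highest with vehicle, at 198 and 200.1 CPM. It was at 127.9 and 128 with E2, 129 and 132 with ketamine, 116 and 109 with (2R,6R)-HNK, then 122 and 118 with (2S,6S)-HNK, 95.5 and 93.8 with E2 plus ketamine, 119.7 and 119 with E2 plus (2R,6R)-HNK, and 135 and 138 with E2 plus (2S,6S)-HNK. No library of any treatment overlapped vehicle. TUG1 fell by 0.54 (E2 plus (2S,6S)-HNK, SE 0.031) to 1.07 (E2 plus ketamine, SE 0.032), and after the correction it was still lower in all 7 comparisons, by 0.24 (E2) to 0.46 (E2 plus ketamine).

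Among the hosts of small nucleolar RNAs, SNHG1 (ENSG00000255717, chr11:62619450-62623425, minus strand) was at 77.4 and 74.5 CPM with vehicle, 51.4 and 53.9 with E2, 46.4 and 45.6 with ketamine, 51.7 and 51.3 with (2R,6R)-HNK, then 45.4 and 44.8 with (2S,6S)-HNK, 43.3 and 41.9 with E2 plus ketamine, 42.5 and 42.7 with E2 plus (2R,6R)-HNK, and 53.5 and 51.2 with E2 plus (2S,6S)-HNK. It fell with all 7 treatments, by 0.53 to 0.83 on the log2 scale, and the corrected decreases were 0.10 ((2R,6R)-HNK) to 0.38 (ketamine), with an adjusted p under 0.05 in each. GAS5 (ENSG00000234741, chr1:173827697-173838020, minus strand) ranged from 51.1 to 75.2 CPM, with vehicle at 72.2 and 71.1 and E2 plus (2S,6S)-HNK at 72.8 and 75.2. As counted, it fell by 0.14 to 0.45 with the other 6 treatments, not all of which held after the correction or, with (2S,6S)-HNK, under upper-quartile scaling (-0.07, adjusted p = 0.147), and was at 0.05 (95% interval -0.04 to 0.13, adjusted p = 0.347) with E2 plus (2S,6S)-HNK. Its sign turned after the correction in 4 comparisons, to 0.09 with (2R,6R)-HNK, 0.29 with (2S,6S)-HNK, 0.12 with E2 plus ketamine and 0.22 with E2 plus (2R,6R)-HNK. It stayed negative with ketamine, at -0.10, and with E2, at -0.05 (adjusted p = 0.327), and the value with E2 plus (2S,6S)-HNK was 0.30 after the correction, 0.15 under upper-quartile scaling and 0.12 with the compared groups alone, all of which passed. SNORD78, one of the small nucleolar RNAs inside GAS5, is listed as a gene of its own and covers 1.32% of the GAS5 exons.

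KCNQ1OT1 (ENSG00000269821, chr11:2618538-2721233, minus strand), the antisense RNA of the imprinted KCNQ1 domain, was at 38.5 and 37.9 CPM with vehicle, 32.9 in both E2 libraries, 28.5 and 29.2 with ketamine, 21.5 in both (2R,6R)-HNK libraries, 23.8 and 24.3 with (2S,6S)-HNK, 20.1 and 18.6 with E2 plus ketamine, 22.8 and 22.9 with E2 plus (2R,6R)-HNK, and 29.7 and 29.1 with E2 plus (2S,6S)-HNK. No treated library overlapped vehicle. The decreases were 0.21 with E2, where the corrected value was 0.07, and 0.38 to 0.98 with the other treatments. The corrected decreases were 0.40 with E2 plus ketamine, 0.30 with (2S,6S)-HNK, 0.27 with E2 plus (2R,6R)-HNK, 0.25 with (2R,6R)-HNK and 0.14 with E2 plus (2S,6S)-HNK, and with ketamine the corrected value was -0.08 (adjusted p = 0.205). KCNQ1 lies on the other strand, and its exons cover 0.131% of those of KCNQ1OT1.

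H19 (ENSG00000130600, chr11:2016396-2025782, minus strand), the member richest in G and C, was the one that was higher in every comparison with vehicle as counted. It was at 11.3 and 10.4 CPM with vehicle, 13.3 and 12.8 with E2, 23.2 and 25.8 with ketamine, 13.3 and 15.4 with (2R,6R)-HNK, then 20.1 and 19.4 with (2S,6S)-HNK, 14.9 and 13.5 with E2 plus ketamine, 20.6 and 21.4 with E2 plus (2R,6R)-HNK, and 19.1 and 18.7 with E2 plus (2S,6S)-HNK. Vehicle held the lowest libraries and ketamine the highest. The increase with ketamine was 1.17 on the log2 scale (SE 0.073, adjusted p = 2.5e-19), or 2.25-fold, and 0.87 after the correction. H19 also rose with (2S,6S)-HNK (0.86, corrected 0.38), E2 plus (2R,6R)-HNK (0.95, corrected 0.45) and E2 plus (2S,6S)-HNK (0.80, corrected 0.56). The smaller values turned sign after the correction: 0.26 to -0.14 with E2, 0.39 to -0.10 with (2R,6R)-HNK and 0.39 to -0.29 with E2 plus ketamine, of which the last passed the threshold in both versions. The value with E2 did not pass without the second vehicle library (0.20, adjusted p = 0.073).

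MEG3 (ENSG00000214548, chr14:101245747-101327368, plus strand), the maternally expressed RNA of the DLK1 locus, stood near one level in 5 conditions and above it in 3. It was at 79.1 and 79.9 CPM with vehicle, 82.8 and 79.2 with E2, 81.3 and 81.7 with ketamine, 75.6 in both (2R,6R)-HNK libraries, and 76.1 and 73.4 with E2 plus ketamine. It was at 117.5 and 116 CPM with (2S,6S)-HNK, 130.4 and 129 with E2 plus (2R,6R)-HNK, and 146 and 149 with E2 plus (2S,6S)-HNK, with no overlap between the 3 higher conditions and the rest. MEG3 rose by 0.55 with (2S,6S)-HNK (SE 0.034, adjusted p = 4.3e-20), by 0.71 with E2 plus (2R,6R)-HNK (SE 0.033, adjusted p = 1.32e-24) and by 0.89 with E2 plus (2S,6S)-HNK (SE 0.033, adjusted p = 4.13e-28). The corrected values were 0.43, 0.56 and 0.90. With E2 the difference was 0.03 (95% interval -0.04 to 0.10), with ketamine 0.04 (-0.03 to 0.10) and with (2R,6R)-HNK -0.07 (-0.14 to -0.00), none of which passed as counted, and the corrected values were -0.07, -0.05 and -0.11, of which the last passed. Under upper-quartile scaling the first 2 passed, at 0.09 with E2 (adjusted p = 0.0193) and 0.12 with ketamine (adjusted p = 0.00190). The decrease of 0.09 with E2 plus ketamine (adjusted p = 0.0224) did not pass without the second E2 plus ketamine library (-0.06, adjusted p = 0.188) or without the second vehicle library (-0.08, adjusted p = 0.0900), nor by DESeq2 (-0.04), under upper-quartile scaling (-0.03), without the filter (-0.08) or with the compared groups alone (-0.07), and was -0.17 after the correction.

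MIAT (ENSG00000225783, chr22:27042375-27072438, plus strand) had 37 and 40 counts with vehicle, 38 and 28 with E2, 57 and 66 with ketamine, 40 and 49 with (2R,6R)-HNK, then 10 and 20 with (2S,6S)-HNK, 29 and 20 with E2 plus ketamine, 40 and 53 with E2 plus (2R,6R)-HNK, and 20 and 47 with E2 plus (2S,6S)-HNK. Only the (2S,6S)-HNK difference passed the test (-1.27, SE 0.45, adjusted p = 0.0117, corrected -1.39). It did not pass without the first (2S,6S)-HNK library (-0.91, adjusted p = 0.137) or without the second vehicle library (-1.20, adjusted p = 0.0514). In the other 6 comparisons MIAT did not pass, with intervals that reached from -1.46 to 0.95. The value with E2 plus (2S,6S)-HNK rests on single libraries, as it was -1.37 (adjusted p = 0.0200) without the second E2 plus (2S,6S)-HNK library and 0.20 without the first.

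The 3 drugs were compared at their matched dose of 400 nM and time, once without and once with E2, which makes 6 pairs. The p-values adjusted over all genes of all 6 pairs led to the same calls for every member as those adjusted within a pair, and the former are printed here. (2R,6R)-HNK and (2S,6S)-HNK are enantiomers, mirror images of one another, and both are metabolites of ketamine.

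Between the enantiomers without E2, all 10 members differed, where 43.5% of all genes did (3 members higher with (2R,6R)-HNK against 21.0%, 7 lower against 22.4%), and 2 of 10 by at least 1 on the log2 scale, where 2.53% of all genes did. These shares of all genes include less abundant genes, which are called less easily. MALAT1 was lower with (2R,6R)-HNK than with (2S,6S)-HNK by 1.09 (95% interval -1.26 to -0.92, adjusted p = 5.08e-16), with 95.1 and 95.4 CPM against 233 and 173 CPM. It was lower by 0.86 without the first (2S,6S)-HNK library, and neither member reached 1 there. The corrected value was -1.04. MEG3 was lower by 0.63 (-0.69 to -0.56, adjusted p = 1.48e-21, corrected -0.54), and H19 by 0.47 (-0.62 to -0.32, adjusted p = 3.45e-07, corrected -0.48). All 3 passed the threshold after the correction as well, and KCNQ1OT1 and TUG1 did not.

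The other members differed less between the enantiomers. GAS5 and NORAD were lower with (2R,6R)-HNK, by 0.22 and 0.16, and SNHG1 and NEAT1 were higher, by 0.19 and 0.15. NEAT1 did not pass without the second (2S,6S)-HNK library (0.11, adjusted p within the pair 0.0903). KCNQ1OT1 (-0.16, corrected 0.05) did not pass without the first (2R,6R)-HNK library, the second (2R,6R)-HNK library or the second (2S,6S)-HNK library, where it lay between -0.16 and -0.15. TUG1 (-0.08, corrected -0.04) did not pass without the second (2R,6R)-HNK library (-0.04) or the first (2S,6S)-HNK library (-0.06), and was -0.13 without the first (2R,6R)-HNK library. It also did not pass after the correction, by DESeq2 or with the compared groups alone. MIAT was higher with (2R,6R)-HNK by 1.36 (0.46 to 2.25, adjusted p = 0.00905), but did not pass without the second (2R,6R)-HNK library (0.98) or the first (2S,6S)-HNK library (0.99).

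With E2 present, 8 of 10 members differed between the enantiomers, all lower with E2 plus (2R,6R)-HNK, where 54.0% of all genes differed (29.1% higher, 25.0% lower). MALAT1 was lower by 0.78 (95% interval -0.94 to -0.61, adjusted p = 1.29e-11, corrected -0.59) and NEAT1 by 0.69 (-0.78 to -0.60, adjusted p = 1.74e-19, corrected -0.61). MEG3 was lower by 0.19 (corrected -0.34) and NORAD by 0.27 (corrected -0.06). The decreases of KCNQ1OT1 (0.36), SNHG1 (0.30), GAS5 (0.28) and TUG1 (0.19) did not pass after the correction, which gave -0.13, -0.08, -0.08 and -0.01. H19 differed by 0.15 (0.01 to 0.29, adjusted p = 0.0662) and MIAT by 0.43 (-0.36 to 1.22, adjusted p = 0.387), neither of which passed. The MIAT value rests on single libraries, as it was 1.37 (adjusted p within the pair 0.0220) without the second E2 plus (2S,6S)-HNK library and -0.20 without the first.

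**Figure D4:**
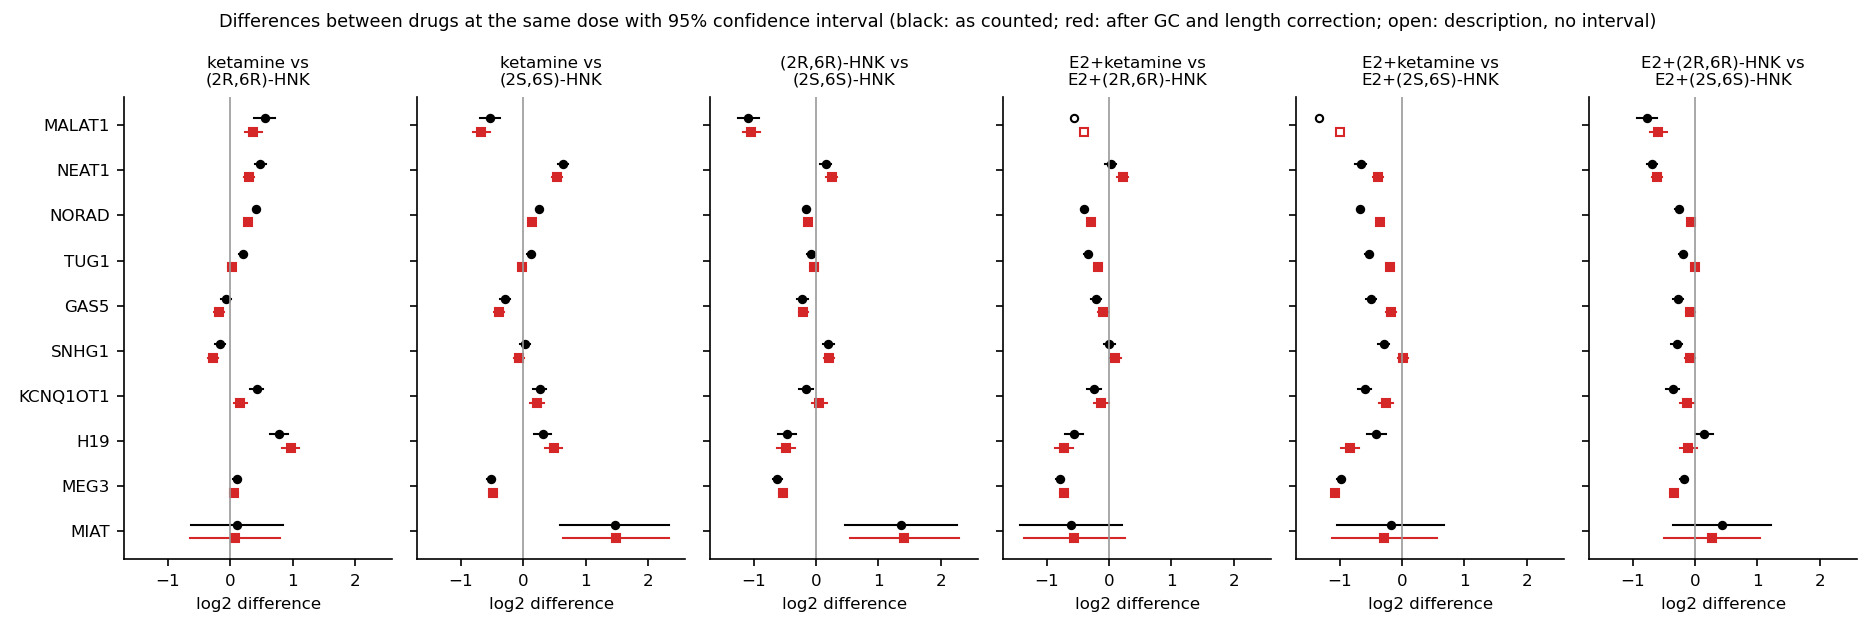
Log2 fold change between drugs at 400 nM (horizontal axis) with its 95% confidence interval for the 10 long noncoding RNAs, in the 3 pairs without E2 and the 3 pairs with E2. Black is as counted, red is after removal of the relation to G and C content and length, and open symbols mark MALAT1 where the E2 plus ketamine libraries enter; MALAT1 lies at -1.09 as counted and -1.04 corrected between (2R,6R)-HNK and (2S,6S)-HNK.

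Ketamine and (2R,6R)-HNK differed in 8 of 10 members, 7 higher and 1 lower with ketamine, where 45.4% of all genes differed (22.8% higher, 22.6% lower). H19 was higher with ketamine by 0.78 (95% interval 0.64 to 0.92, adjusted p = 1.25e-13, corrected 0.97), MALAT1 by 0.55 (0.39 to 0.72, adjusted p = 1.27e-07, corrected 0.37) and NEAT1 by 0.48 (0.40 to 0.57, adjusted p = 2.57e-14, corrected 0.30). GAS5 differed by -0.06 (-0.15 to 0.02, corrected -0.19) and MIAT by 0.11 (-0.63 to 0.85), neither of which passed as counted. The increases of TUG1 (0.21) and MEG3 (0.11) did not pass after the correction, which gave 0.03 and 0.06, whereas the GAS5 difference then did. Ketamine and (2S,6S)-HNK differed in 9 of 10 members, 6 higher and 3 lower with ketamine, against 46.1% of all genes (22.0% higher, 24.2% lower). NEAT1 (0.64, corrected 0.54) and H19 (0.31, corrected 0.49) were higher with ketamine, whereas MALAT1 (-0.54, corrected -0.67), MEG3 (-0.52, corrected -0.48) and GAS5 (-0.29, corrected -0.39) were lower. The MALAT1 value was -0.30 without the first (2S,6S)-HNK library. SNHG1 differed by 0.03 (-0.06 to 0.12, corrected -0.07), and TUG1 was at 0.12 (corrected -0.01). MIAT, at 1.47 (0.59 to 2.34), did not pass without the first (2S,6S)-HNK library (1.10). A log2 fold change of at least 1 was reached by MIAT alone against (2S,6S)-HNK (1 of 10, 1.77% of all genes) and by no member against (2R,6R)-HNK (0.844%).

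In the presence of E2, most members were lower with ketamine than with either HNK as counted. Against E2 plus (2R,6R)-HNK, 6 of the 9 members tested were lower with E2 plus ketamine and none was higher, where 52.0% of all genes differed (25.3% higher, 26.7% lower). MEG3 (-0.80, corrected -0.73) and H19 (-0.56, corrected -0.73) led them, while NEAT1 differed by 0.02 (95% interval -0.07 to 0.11, corrected 0.22) and SNHG1 by 0.00 (-0.09 to 0.09, corrected 0.10). After the correction both of these passed as higher with E2 plus ketamine, and KCNQ1OT1 (-0.24, corrected -0.13) no longer passed. Against E2 plus (2S,6S)-HNK, 8 of 9 were lower, where 66.8% of all genes differed (31.7% higher, 35.0% lower). MEG3 (-0.98, corrected -1.07) was again first, followed by NORAD (-0.68, corrected -0.35), NEAT1 (-0.67, corrected -0.39) and KCNQ1OT1 (-0.60, corrected -0.26). H19 was at -0.41 (corrected -0.84). The values of GAS5 (-0.50), SNHG1 (-0.30) and TUG1 (-0.53) became -0.18, 0.02 and -0.19 after the correction. MALAT1, as a description, was -0.56 relative to E2 plus (2R,6R)-HNK and -1.34 relative to E2 plus (2S,6S)-HNK. No member tested reached a log2 fold change of 1 with E2 present, where 3.09% (ketamine against (2R,6R)-HNK), 5.62% (ketamine against (2S,6S)-HNK) and 0.662% (between the enantiomers) of all genes did, and after the correction MEG3 did against E2 plus (2S,6S)-HNK, as it did without the first E2 plus ketamine library (-1.01).

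The design also asks what E2 adds to each drug. Added to ketamine, E2 went with lower levels of 7 of the 9 members tested and higher levels of none, where 57.5% of all genes changed (27.3% higher, 30.2% lower). H19 fell by 0.79 (corrected decrease 1.15), NEAT1 by 0.71 (corrected 0.44) and NORAD by 0.61 (corrected 0.36). SNHG1, at -0.11 (adjusted p = 0.0254), was at 0.12 after the correction and at -0.09 (adjusted p = 0.102) by DESeq2. It did not pass with the compared groups alone (-0.09), without the second E2 plus ketamine library (-0.09) or without the first ketamine library (-0.10). MIAT, at -0.81, did not pass, but did without the filter on low counts (-0.82). GAS5, at -0.02, did not pass as counted and was higher by 0.22 after the correction. Added to (2R,6R)-HNK, E2 went with 6 higher and 2 lower members, where 47.9% of all genes changed (24.2% higher, 23.8% lower), led by MEG3 (0.78, SE 0.033, corrected 0.67) and H19 (0.56, SE 0.072, corrected 0.55). The increases of MALAT1 (0.20, adjusted p = 0.0467), GAS5 (0.13) and TUG1 (0.08) were small: MALAT1 lost the call without any 1 of its 4 libraries, GAS5 without the second (2R,6R)-HNK library (0.11) or the first E2 plus (2R,6R)-HNK library (0.10), and TUG1 without the second (2R,6R)-HNK library (0.04) or either E2 plus (2R,6R)-HNK library (0.08 and 0.09), while it was 0.13 without the first (2R,6R)-HNK library. MALAT1 (0.16) and TUG1 (0.05) did not pass after the correction, nor did either by DESeq2 (0.19 and 0.07). Without the second (2R,6R)-HNK library or the first E2 plus (2R,6R)-HNK library the count was 5 of 10. Added to (2S,6S)-HNK, E2 went with higher levels of 7 of 10 members as counted and lower levels of none, where 51.3% of all genes changed (24.1% higher, 27.2% lower). NEAT1 (0.59, corrected 0.50) and MEG3 (0.34, corrected 0.47) kept their increases, and those of GAS5, SNHG1 and TUG1 (0.19, 0.22 and 0.19) became 0.01, 0.03 and 0.01 after the correction. H19 was at -0.06, and at 0.18 after the correction. MALAT1 was at -0.11 (adjusted p = 0.248) and, after the correction, at -0.29 with an adjusted p under 0.05. As counted it was -0.31 without the second (2S,6S)-HNK library and -0.30 without the second E2 plus (2S,6S)-HNK library, which both passed the threshold, and 0.12 and 0.06 without the first library of either condition, which did not. MIAT, at 0.84, did not pass, but was 1.47 (adjusted p = 0.00955) without the first E2 plus (2S,6S)-HNK library and -0.10 without the second. No member tested reached a log2 fold change of 1 in these 3 comparisons with all libraries and as counted, where 1.07%, 2.98% and 0.700% of all genes did.

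Read the other way, as each drug on top of E2, 6 of 9 members fell with ketamine and none rose, against 50.3% of all genes (24.8% higher, 25.5% lower). GAS5 (-0.00) and H19 (0.12) did not pass there as counted, and were at 0.17 and -0.15 after the correction, of which the first passed. MEG3, at -0.12, did not pass without the first E2 library (-0.08) or the second E2 plus ketamine library (-0.09). (2R,6R)-HNK on top of E2 gave 3 increases and 5 decreases, against 50.5% of all genes (25.1% higher, 25.4% lower), with MEG3 at 0.68 (corrected 0.62) and NEAT1 at -0.65 (corrected -0.64). TUG1, at -0.10, did not pass after the correction (-0.04, adjusted p = 0.318) or without the second E2 library (-0.09, adjusted p = 0.0506), and NORAD, at 0.03, passed after the correction (0.09). MALAT1 was at -0.39 there, at -0.22 (adjusted p = 0.0510) without the first E2 library and at -0.40 (adjusted p = 0.0705) by DESeq2. (2S,6S)-HNK on top of E2 gave 6 increases and 1 decrease, against 55.1% of all genes (27.3% higher, 27.8% lower), with MEG3 at 0.87 (corrected 0.97), H19 at 0.54 (corrected 0.69) and GAS5 at 0.50 (corrected 0.35). TUG1, at 0.09, was at -0.03 after the correction and did not pass without the first E2 library (0.09) or the second E2 plus (2S,6S)-HNK library (0.08). KCNQ1OT1, at -0.16, did not pass without the second E2 plus (2S,6S)-HNK library (-0.15), and SNHG1, at -0.01, was at -0.16 after the correction, which passed. MALAT1 was at 0.38 there, at 0.24 without the second E2 library and at 0.19 without the second E2 plus (2S,6S)-HNK library, and passed the threshold in each, though not by DESeq2 (0.37, adjusted p = 0.0845). No member tested reached a log2 fold change of 1 on top of E2, where 1.12%, 3.57% and 3.67% of all genes did.

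Whether the change with a drug differed between cells with and without E2 was tested as an interaction, which compares the log2 fold change of drug against vehicle with that of drug plus E2 against E2. The shares of all genes set beside the members were again not matched in level. For ketamine, 8 of 9 members passed, where 37.5% of all genes did (3 members above 0 against 24.5%, 5 below against 13.1%), and H19 alone reached 1 on the log2 scale (1 of 9, 1.82% of all genes). It was short of 1 without the second ketamine library (-0.97), the second E2 plus ketamine library (-0.98) or the second vehicle library (-0.99). H19 was at -1.05 (SE 0.11, adjusted p = 2.14e-11, corrected -1.02), since ketamine raised it in cells without E2 and it stood at 0.12 (95% interval -0.03 to 0.28) in cells with E2. NEAT1 was at -0.73 (SE 0.060, adjusted p = 3.13e-14, corrected -0.73), with ketamine at 0.09 without E2 and at -0.63 with E2. GAS5 and SNHG1 were at 0.43 and 0.42 (corrected 0.27 and 0.23).

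For (2R,6R)-HNK, 9 of 10 members passed the interaction test, where 56.6% of all genes did (8 above 0 against 31.5%, 1 below against 25.2%). MEG3 was at 0.75 (SE 0.048, adjusted p = 8.02e-19, corrected 0.73): the drug stood at -0.07 without E2 and at 0.68 with E2. MALAT1 was at 0.81 (SE 0.12, adjusted p = 4.59e-08, corrected 0.38), with the drug at -1.20 without E2 and -0.39 with E2. SNHG1 (0.25) and KCNQ1OT1 (0.31) were at -0.14 and -0.09 after the correction. For (2S,6S)-HNK, 9 of 10 members passed as counted, where 65.1% of all genes did (8 above 0 against 32.9%, 1 below against 32.2%), with TUG1 at 0.83, SNHG1 at 0.75 and NORAD at 0.68. After the correction 6 of the 10 passed, where 40.1% of all genes did: MEG3 (0.54), H19 (0.32, from -0.33 as counted), TUG1 (0.25), NEAT1 (0.20), SNHG1 (0.14) and NORAD (0.08). No member both passed and reached 1 on the log2 scale with (2R,6R)-HNK (5.68% of all genes) or with (2S,6S)-HNK (10.7%). MIAT was at 1.08 with (2S,6S)-HNK (adjusted p = 0.122, corrected 1.30) and did not pass, but it was 1.70 (adjusted p = 0.0131) without the first E2 plus (2S,6S)-HNK library and 0.14 without the second. MALAT1 was at 0.50 as counted and -0.07 after the correction. It was at 0.30 without the second (2S,6S)-HNK library and at 0.31 without the second E2 plus (2S,6S)-HNK library, and DESeq2 did not call it (adjusted p = 0.136).

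**Figure D5:**
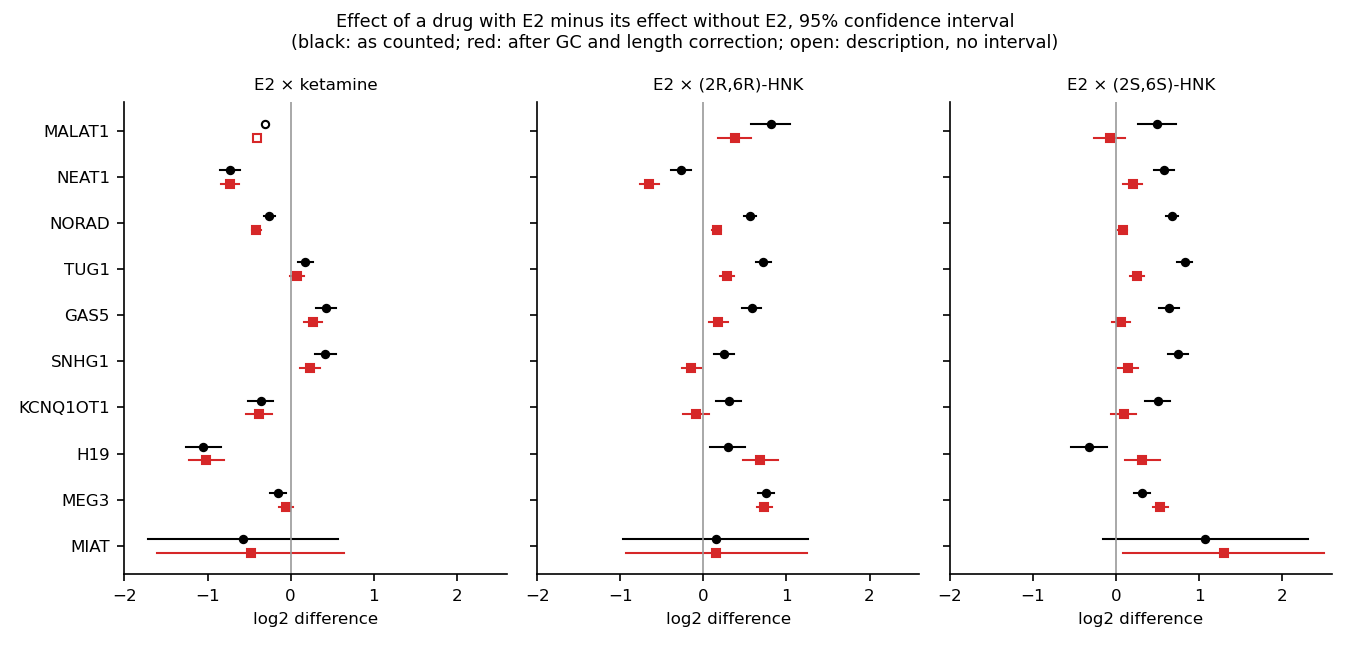
Interaction of each drug with E2 (horizontal axis, log2 fold change of drug plus E2 against E2 minus that of drug against vehicle) with its 95% confidence interval for the 10 long noncoding RNAs. Black is as counted, red is after removal of the relation to G and C content and length, and open symbols mark MALAT1 with ketamine; H19 and NEAT1 lie below 0 with ketamine and MEG3 above 0 with (2R,6R)-HNK in both versions.

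Genes with roles close to those of the members were counted against vehicle in the same way, first with E2, then with ketamine and with the R and the S form of HNK, and last with the same 3 drugs and E2. Of 15 nuclear speckle proteins, 12, 11, 12, 9, 12, 10 and 9 fell and 3, 2, 3, 4, 2, 5 and 3 rose. The splicing factor SRSF1 was at -1.27 with (2S,6S)-HNK (corrected -0.72), PNN at -0.76 with E2 (corrected -0.23), and SRRM2, a core protein of speckles, was higher in all 7, at 0.13 to 0.54, though below 0 after the correction in 4 of them. After the correction the 15 gave 6, 9, 4, 6, 10, 7 and 6 decreases and 5, 2, 5, 5, 4, 7 and 4 increases. Of 12 paraspeckle proteins, 8, 10, 8, 10, 9, 10 and 11 fell and 3, 0, 3, 2, 3, 2 and 0 rose. TARDBP and SFPQ, an RNA-binding protein that paraspeckles need, were at -1.07 and -0.99 with (2S,6S)-HNK (corrected -0.62 and -0.67). After the correction the 12 gave 4, 7, 4, 9, 5, 9 and 10 decreases and 5, 2, 5, 1, 3, 2 and 1 increases. The 6 proteins listed as partners of NORAD all fell in all 7 comparisons as counted, with PUM2, a Pumilio protein, at -0.90 with (2R,6R)-HNK (corrected -0.38), and after the correction 4 or 5 of them fell and 1 rose in each. In all genes tested, the share that was lower was between 32.5% and 37.4% as counted, and the share that was higher between 24% and 34.3%. After the correction these shares were 19.6% to 29.5% and 17.9% to 29.3%.

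Other hosts of small nucleolar RNAs did not go one way. Of 19 hosts besides GAS5 and SNHG1, 5, 11, 7, 8, 7, 9 and 8 fell and 4, 1, 6, 2, 5, 3 and 5 rose in the same order, and after the correction 6, 10, 4, 5, 6, 5 and 4 fell and 7, 1, 10, 5, 9, 5 and 4 rose. SNHG5 fell in each of the 7 as counted, by 0.26 to 0.66, though it was at 0.01 and 0.03 after the correction with E2 plus ketamine and with E2 plus (2S,6S)-HNK, whereas SNHG17 rose with E2 by 0.28 (corrected 0.17) and with E2 plus ketamine by 0.47 (corrected 0.35). Of 13 genes that neighbour KCNQ1OT1, H19 or MEG3 in their imprinted loci, 10 were tested, and 5, 3, 4, 4, 5, 4 and 3 rose while 2, 3, 2, 3, 2, 3 and 4 fell. After the correction 1, 2, 1, 1, 3, 3 and 3 rose and 1, 4, 3, 5, 3, 5 and 5 fell. SLC22A18, in the domain of KCNQ1OT1, rose in all 7, by 0.58 to 1.33 (corrected 0.12 to 0.87). CDKN1C, a cell cycle inhibitor of the same domain, rose by 0.71 with E2, 1.03 with ketamine, 1.28 with E2 plus ketamine and 0.65 with (2R,6R)-HNK, and fell by 0.44 with (2S,6S)-HNK, 0.47 with E2 plus (2R,6R)-HNK and 0.56 with E2 plus (2S,6S)-HNK, with the same signs after the correction. Of 20 other long noncoding RNAs in the table, 16 were tested, of which 6, 8, 7, 8, 8, 10 and 7 fell and 0, 0, 1, 3, 1, 1 and 1 rose as counted, while 2, 2, 3, 4, 3, 5 and 3 fell and 4, 5, 6, 6, 8, 4 and 5 rose after the correction.

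The genes whose log2 level followed each member most closely over the 16 libraries were taken among tested genes of at least 5 CPM, by Pearson's r. These r values are descriptions over libraries that share 8 conditions, depth and base composition effects. TUG1 went with USP9X (r = 0.994), NORAD with ELOVL5 (0.991), SNHG1 with EIF5 (0.988), MEG3 with KIAA0907 (0.976), KCNQ1OT1 with SHISA9 (0.970), GAS5 with ATP6V1G1 (0.963), H19 with LAMA1 (0.957), MALAT1 with RNF11 (0.943) and NEAT1 with DCAF12L1 (0.926). MIAT, with its low counts, reached 0.723 with USP54. MALAT1 and NEAT1, neighbours on chromosome 11, had r = 0.54, which was 0.15 after the correction, and TUG1 and KCNQ1OT1 had r = 0.89, which was 0.66.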

How the data were processed

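HMC3 cells were measured by RNA-seq in 16 libraries of 8 conditions, grouped from the labels. The authors made libraries with the NuGEN Ovation v2 kit, sequenced paired reads of 100 bases, aligned them to hg19 and counted reads per gene. The submitters' processing notes name TopHat2 2.0.14, Bowtie2 2.2.6 and featureCounts 1.4.6, and the study's methods give other aligner versions. The deposited values are raw counts, with no normalization. Even values made up 65.8% of the counts from 1 to 9 and 49.9% of those of at least 500, and the counting step behind this was not tested. The members and gene lists were chosen with earlier results of these data known.

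The counts were filtered with edgeR's filterByExpr (16004 genes kept) and tested with edgeR 4.0.16 (TMM scaling, quasi-likelihood test, all 8 conditions in one fit, 8 residual degrees of freedom) in R 4.3.3, with p-values adjusted by Benjamini-Hochberg over all genes. Intervals are 95%. With 2 libraries against 2 an exact permutation test cannot go below p = 0.333, so single-gene p-values rest on the spread shared across genes (common coefficient of variation 2.81%). Named genes of the lists were the 2 most raised and the 2 most lowered that passed the threshold at a mean of at least 5 CPM, and the genes most like each member were the 3 with the highest Pearson's r of log2 CPM. Exon lengths, positions and G and C content came from GENCODE v44 models on GRCh37, matched by symbol, with values for 96.0% of the genes tested, since the UCSC hg19 iGenomes models named in the methods of the study were not used here. The correction removed a loess curve (span 0.5) of log2 count on G and C content and on length from each library as an offset, and TMM scaling was then computed on the corrected counts. Alternatives were this correction, a replicate block, upper-quartile scaling, other filters, DESeq2 1.42.0, thinned or halved counts, fits of the compared groups alone, and leaving out each library. The fit was tested on simulated counts.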

Additional observations from a re-analysis of the deposited data

Results flagged for a closer look

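The effect of a drug differed between cells with and without E2, by the interaction test of edgeR at an adjusted p under 0.05, for the members below. The values are on the log2 scale, positive where the drug effect was higher with E2, and those for MALAT1 with ketamine are left out as a description.

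With ketamine, GAS5 was at 0.43, H19 at -1.05, KCNQ1OT1 at -0.36, SNHG1 at 0.42, NEAT1 at -0.73, MEG3 at -0.15, NORAD at -0.26 and TUG1 at 0.17. MEG3 did not pass without the first E2 library (-0.12) or the second E2 plus ketamine library (-0.13), and after the correction for G and C content and length it was at -0.06 (adjusted p = 0.361). TUG1 did not pass after the correction (0.08, adjusted p = 0.137) or under upper-quartile scaling (0.09, adjusted p = 0.129).

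With (2R,6R)-HNK, GAS5 was at 0.58, H19 at 0.29, KCNQ1OT1 at 0.31, SNHG1 at 0.25, NEAT1 at -0.26, MALAT1 at 0.81, MEG3 at 0.75, NORAD at 0.57 and TUG1 at 0.72. H19 did not pass without the first (2R,6R)-HNK library (0.18), the second E2 library (0.27), the second E2 plus (2R,6R)-HNK library (0.26) or the first vehicle library (0.23), nor by DESeq2 (0.25) or under upper-quartile scaling (0.23). After the correction H19 was at 0.69 (adjusted p = 1.48e-07), SNHG1 was at -0.14 and KCNQ1OT1 at -0.09.

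With (2S,6S)-HNK, GAS5 was at 0.64, H19 at -0.33, KCNQ1OT1 at 0.50, SNHG1 at 0.75, NEAT1 at 0.58, MALAT1 at 0.50, MEG3 at 0.31, NORAD at 0.68 and TUG1 at 0.83. H19 did not pass without the second vehicle library (-0.26), and was at 0.32 after the correction, where MALAT1 was at -0.07. GAS5 (0.06) and KCNQ1OT1 (0.09) did not pass after the correction, and MALAT1 did not by DESeq2 (0.46).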

How the results depend on the processing

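The 220 log2 values of the members were recomputed under each alternative. The replicate block, a filter of at least 10 counts in every library and halved counts left the direction and the call of 220 of them in place. Thinning changed 2 calls, no filter 4, fits of the compared groups alone 5, and upper-quartile scaling and DESeq2 10 each. The same numbers did not pair libraries (correlations of deviations -0.0258 to 0.0451 over all genes tested, and -0.147 to 0.0874 over the 10701 with a mean log2 CPM above 2), and with the replicate block the log2 fold change of MALAT1 between (2R,6R)-HNK and vehicle stayed at -1.20. Upper-quartile scaling moved the share of the called genes that were higher from 40.2% to 54.3% for E2 plus (2S,6S)-HNK against vehicle, where the median of all genes went from -0.06 to 0.04. That share moved from 45.2% to 55.6% for ketamine against vehicle and from 65.2% to 46.9% for the interaction of ketamine with E2. Without the filter, MALAT1 passed between (2S,6S)-HNK and vehicle.

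The correction for G and C content and length turned 35 signs. In 7 of these neither version passed the threshold, and in the other 28, given here, at least 1 did, a number that was also 28 with the replicate block. A further 20 values lost and 10 gained their call with no turned sign (19 and 10 with the block). The cause was not tested. Against vehicle they were H19 -0.14, KCNQ1OT1 0.065 and NORAD 0.055 with E2, NORAD 0.22 with ketamine, NEAT1 0.0077 (block 0.0075), H19 -0.10 and GAS5 0.087 with (2R,6R)-HNK, MALAT1 0.34 (block 0.33), GAS5 0.29 and NORAD 0.071 with (2S,6S)-HNK, H19 -0.29 and GAS5 0.12 with E2 plus ketamine, GAS5 0.22 and NORAD 0.15 with E2 plus (2R,6R)-HNK, and MALAT1 0.047 (block 0.054) and NORAD 0.21 with E2 plus (2S,6S)-HNK. Between drugs they were TUG1 -0.012 (ketamine, (2S,6S)-HNK), KCNQ1OT1 0.051 (the enantiomers) and SNHG1 0.017 (block 0.018; E2 plus ketamine, E2 plus (2S,6S)-HNK). For E2 added to a drug they were GAS5 0.22 and SNHG1 0.12 with ketamine and H19 0.18 with (2S,6S)-HNK, and on top of E2 GAS5 0.17 with ketamine and TUG1 -0.029 with (2S,6S)-HNK. In the interactions they were SNHG1 -0.14 and KCNQ1OT1 -0.092 with (2R,6R)-HNK, and MALAT1 -0.074 (block -0.065) and H19 0.32 with (2S,6S)-HNK.

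The correction lowered the members past a log2 fold change of 1 from 1 to 0 for ketamine, (2R,6R)-HNK, E2 plus ketamine and E2 plus (2R,6R)-HNK against vehicle. The last was also 0 with at least 10 counts in every library, by DESeq2 and with the compared groups alone. It gave 1 for E2 plus ketamine against ketamine and against E2 plus (2S,6S)-HNK (1 also under upper-quartile scaling), and 4 members called between the enantiomers with E2. Among all genes, those past 1 against vehicle went from 290 to 139 with E2 (134 with the block, 180 with at least 10 counts), 570 to 371 with ketamine (359), 600 to 234 with (2R,6R)-HNK (225), 1453 to 772 with (2S,6S)-HNK (761), 1765 to 396 with E2 plus ketamine (392) and 1843 to 941 with E2 plus (2R,6R)-HNK (938), and calls with E2 from 10007 to 6012 (5981).

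Leaving out 1 library, the members past 1 ranged from 0 to 1 for (2S,6S)-HNK, E2 plus (2R,6R)-HNK and E2 plus (2S,6S)-HNK against vehicle, for ketamine against (2S,6S)-HNK, for E2 plus ketamine and E2 plus (2R,6R)-HNK against E2 plus (2S,6S)-HNK for E2 added to (2S,6S)-HNK and for the interactions of ketamine and of (2S,6S)-HNK with E2, from 1 to 2 for E2 plus ketamine against vehicle and from 0 to 2 between the enantiomers. Members called for E2 added to (2R,6R)-HNK ranged from 5 to 7, against 8 with all libraries. Where an arm kept 1 library, it was assumed to vary like the other groups.

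Each condition has 2 libraries, so a single library weighs on each value, most for MALAT1 and MIAT. With 10 to 66 counts, MIAT carries little information. Levels per length depend on the gene model, as the model with canonical transcripts, chosen after the data were seen, put MEG3 at 155.6 and KCNQ1OT1 at 40.0 CPM per kilobase. Base composition and treatment cannot be told apart by the correction where a treatment acts on RNAs of one composition. How strand and overlapping genes entered the counting is not given in the sources used here.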
